A study of Mus musculus with 2 samples.

Results

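Prdm1, Irf4, Irf8 and Maf encode transcription factors tied to the effector state of regulatory T cells (Tregs), and they were followed through CD4+ T cells of mouse visceral adipose tissue (VAT) and spleen. The 4 genes were chosen by symbol from the 55487 genes of the expression matrix, and each symbol stood on 1 gene ID. The study took cells from Treg-bmal1KO and Treg-bmal1WT mice, which lack or keep the clock gene Bmal1 in Tregs, at zeitgeber time 0 and zeitgeber time 12 (ZT0 and ZT12, hours counted from lights on). Every animal was C57BL/6 Foxp3.Cre-YFP, a line in which Cre and a yellow fluorescent protein are made from the Foxp3 locus and so in Tregs, and was kept in rooms with reversed light. Age, sex and number of animals are not given in the sources used here.

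The sort yielded 34000 VAT cells and 32000 splenic cells, each combination of genotype, time and tissue carried its own hashtag antibody, and all were pooled into 1 expression library with 1 hashtag library. The design implies 8 combinations, but 6 hashtags held more than 1000 counts, and neither the labels nor the tag names say which hashtag is which combination. KO against WT, ZT12 against ZT0 and VAT against spleen were therefore not compared. Levels are given per hashtag as CPM, the count of unique molecular identifiers (UMIs) of a gene per 1000000 UMIs of its class, and the hashtags are not replicates of a condition. The library counts as 1 sample, so no test, SD or p-value is given. The 95% intervals are exact Poisson for CPM and exact Clopper-Pearson for shares of cells, and they cover counting error only.

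Effector Tregs are the activated, tissue-homing state of the lineage. Prdm1 encodes Blimp-1, a zinc finger repressor that opposes memory and follicular programmes and promotes Il10. Irf4 is induced by antigen receptor signals, binds DNA with AP-1 partners such as Batf and is needed for effector and fat-resident Tregs. Irf8 is the closest relative of Irf4, best known from dendritic cell and B cell development, and has been tied to Th1-like Tregs. Maf encodes c-Maf, a basic leucine zipper factor that drives Il10 and Il21 in several helper lineages and is required in follicular helper T (Tfh) cells.

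The gene loci, in the RefSeq GRCm38.p6 annotation, are chromosome 10 from 44437174 to 44528558 for Prdm1 (ENSMUSG00000038151.13), chromosome 13 from 30749233 to 30766981 for Irf4 (ENSMUSG00000021356.10), chromosome 8 from 120736358 to 120756694 for Irf8 (ENSMUSG00000041515.10) and chromosome 8 from 115703253 to 115706894 for Maf (ENSMUSG00000055435.6). The promoters of Prdm1 and Irf8 are shown because these were the members detected with Il10 beyond expectation at every depth tried, and that of Irf4 beside its paralogue. RefSeq sequences of the 250 bases before and 50 bases after the listed start were searched on both strands for motifs. These were CACGTG (the E-box read by Bmal1 and Clock), TGANTCA (the AP-1 core with any centre base) and TTCNNNGAA (the STAT core). Capitals mark the matches.
Prdm1, chr10:44458699-44458998, minus strand: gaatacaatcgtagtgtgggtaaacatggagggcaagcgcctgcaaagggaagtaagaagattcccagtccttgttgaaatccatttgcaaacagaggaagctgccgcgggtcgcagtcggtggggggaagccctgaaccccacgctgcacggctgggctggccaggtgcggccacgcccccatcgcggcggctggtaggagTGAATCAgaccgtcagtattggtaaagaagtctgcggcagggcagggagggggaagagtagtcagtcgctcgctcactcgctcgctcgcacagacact
Irf8, chr8:120736108-120736407, plus strand: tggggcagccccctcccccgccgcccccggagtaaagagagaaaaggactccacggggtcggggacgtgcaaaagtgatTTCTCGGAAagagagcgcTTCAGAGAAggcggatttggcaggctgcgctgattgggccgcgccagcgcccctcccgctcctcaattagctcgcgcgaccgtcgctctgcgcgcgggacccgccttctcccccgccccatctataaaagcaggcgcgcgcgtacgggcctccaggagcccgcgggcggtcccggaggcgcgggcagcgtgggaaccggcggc
Irf4, chr13:30748983-30749282, plus strand: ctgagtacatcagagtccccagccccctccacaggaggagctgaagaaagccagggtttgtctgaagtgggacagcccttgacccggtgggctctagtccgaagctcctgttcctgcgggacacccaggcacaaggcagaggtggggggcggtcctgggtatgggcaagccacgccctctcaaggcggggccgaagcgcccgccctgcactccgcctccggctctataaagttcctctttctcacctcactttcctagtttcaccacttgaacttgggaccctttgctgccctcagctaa

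The Prdm1 window held 1 TGANTCA match, TGAATCA, 48 bases before the listed start, which lies inside the Prdm1 locus and not at its end. The Irf8 window held 2 STAT cores, 171 and 153 bases before its start. The Irf4 window and a further Irf8 window at chr8:120738389-120738688 held none of the 3 motifs. Of 32851 RefSeq promoter windows of the same length, 7.15% held CACGTG, 7.81% TGANTCA and 8.3% TTCNNNGAA. A match describes the letters of the window and is not evidence of binding. Maf and Il10 were not matched in the promoter table.

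The expression library held 22960 barcodes and 96923402 UMIs, and 22952 of its barcodes were also in the hashtag library. After hashtag calling, filters and removal of cells with 2 or more UMIs of 25 marker genes of other cell types, 11733 T cells with a median of 3128 UMIs remained. Classes were gated on marker genes that do not include the 4 factors or Il10. A cell was Treg-gated with a Foxp3 UMI (677 cells) or with 3 or more of 8 Treg markers (Il2ra, Ikzf2, Ctla4, Tnfrsf18, Tnfrsf4, Il1rl1, Areg, Klrg1; 3305 further cells), 3982 cells in all. A Foxp3 UMI was found in 14.0% (interval 12.9% to 15.1%) of cells with 3 or more of these markers, in 1.77% of the others and in 1.10% of those with naive markers. The other gates gave 2661 Th1 cells, 90 Tfh cells, 58 type 17 cells and 1843 naive cells, of which 924 and 653 naive cells carried hashtags 5 and 6.

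Over all hashtags, Prdm1 had 37.2 CPM in Treg-gated cells, 34.6 CPM in Th1 cells and 5.59 CPM in naive cells. Irf4 had 32.8 CPM in Treg-gated cells, 12.2 CPM in Th1 cells and 5.59 CPM in naive cells. Irf8 had 45.4 CPM in Treg-gated cells, 16.9 CPM in Th1 cells and 5.72 CPM in naive cells. The Prdm1 intervals of Treg-gated (34.2 to 40.4 CPM) and Th1 cells (30.6 to 39.1 CPM) overlapped, while Irf4 and Irf8 were highest in the Treg gate.

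Maf had 468 CPM in Treg-gated cells, 758 CPM (656 to 871) in Tfh cells, 635 CPM in type 17 cells, 432 CPM in Th1 cells and 51.2 CPM in naive cells. Its order was Tfh, type 17, Treg, Th1, then naive, with naive cells far below the rest. The intervals of Tfh and type 17 cells (524 to 762 CPM) overlapped, and those of Treg-gated (457 to 479 CPM) and Th1 cells (417 to 447 CPM) lay close but apart. In the 90 Tfh cells Prdm1 and Irf4 had 0 UMIs, where 3 UMIs would be 11.4 CPM, a limit above the naive level. Irf8 had 6 UMIs there, or 22.9 CPM.

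Shares of cells with a UMI were compared after every cell was thinned to 2000 UMIs. Prdm1 was found in 6.89% of Treg-gated cells, 6.81% of Th1 cells and 1.05% of naive cells. Irf4 was found in 5.50% of Treg-gated cells, 2.43% of Th1 cells and 1.16% of naive cells. Irf8 was found in 4.65%, 3.001% and 0.887% of the same classes, and Maf in 49.8%, 46.0% and 8.20%, with 74.3% in Tfh cells. The classes thus kept the order of their levels. Unthinned, the shares in Treg-gated cells were 11.9% for Prdm1, 9.44% for Irf4, 8.21% for Irf8 and 64.7% for Maf, at a median depth of 3210.5 UMIs. In naive cells, which should largely lack these factors and were deeper (median 4083 UMIs), the unthinned shares were 2.28%, 2.33%, 2.28% and 15.4% in the same gene order. A naive-level share is read as background for Prdm1, Irf4 and Irf8, of which no naive cell held more than 2 UMIs. For Maf, 62 naive cells held 2 to 4 UMIs and 6 held 5 or more, so its naive share is not read that way.

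Within the Treg gate the hashtags differed, and so did the cells the gate held. ST2-detected cells were 597 of 1149, 516 of 732, 341 of 672, 453 of 626, 45 of 525 and 32 of 278 Treg-gated cells in hashtags 1 to 6. A Foxp3 UMI was found in 16.4%, 14.1%, 15.6%, 13.3%, 8.79% and 10.1% of cells with 3 or more Treg markers. The part of this makeup in the levels by hashtag was not tested. Prdm1 had 42.8, 43.8, 38.2, 54.5, 12.7 and 9.41 CPM in hashtags 1 to 6. Hashtags 5 and 6 were low, and their intervals (8.29 to 18.6 and 4.70 to 16.8 CPM) lay below those of hashtags 1 to 4, the lowest of which began at 31 CPM. Irf8 had 43.7, 58.0, 46.8, 64.0, 24.9 and 19.7 CPM in the same order. Here too hashtags 5 and 6 were lowest, with intervals of 18.5 to 32.7 and 12.5 to 29.5 CPM against a lowest bound of 37.7 CPM in hashtags 1 to 4. Irf4 had 29.5, 38.3, 26.1, 61.8, 21.0 and 13.7 CPM. Hashtag 4 stood highest for Irf4, with an interval of 51.8 to 73.0 CPM that overlapped no other, while the intervals of hashtags 1, 3 and 5 overlapped.

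Maf varied least among hashtags in Treg-gated cells, with 526, 446, 486, 425, 439 and 400 CPM in hashtags 1 to 6. The interval of hashtag 1 (505 to 548 CPM) overlapped that of hashtag 3 (460 to 514 CPM), and all others lay below it. Hashtags 5 and 6, low for Prdm1 and Irf8, were not set apart from hashtags 2 and 4 for Maf.

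**Figure D1:**
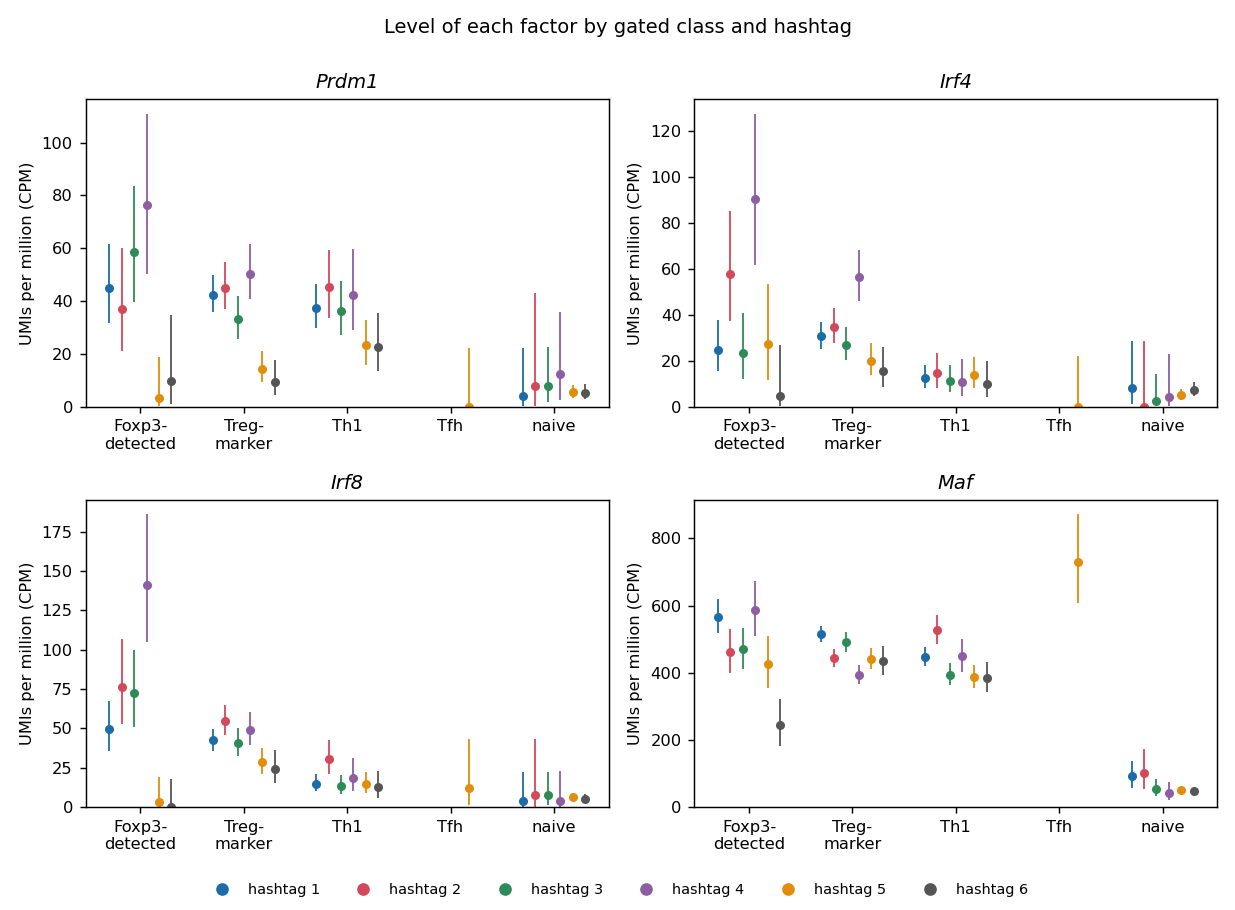
Each panel plots the level of 1 factor in CPM (linear axis) for the gated classes, with 1 point per hashtag of at least 30 cells and exact Poisson 95% intervals as bars. Maf stands high in every class except naive cells, and Prdm1 and Irf8 are low in hashtags 5 and 6 of the Treg classes.

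Cells of other types carried the factors too, outside the T cell gate. Irf8 had 1413 CPM in 8 dendritic-marked barcodes, Irf4 had 90.7 CPM in 33 plasma-marked and 86.1 CPM in 73 B-marked barcodes, and Maf had 687 CPM in 194 macrophage-marked barcodes. The T cell gate removed barcodes with 2 or more UMIs of these types' markers.

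Foxp3-detected cells were set against T cells with neither a Foxp3 UMI nor the Treg markers, within each hashtag. These other T cells mixed classes. Naive cells were 924 of 2522 of them in hashtag 5 and 653 of 1496 in hashtag 6, against 70 of 1409 in hashtag 1. Irf4 and Irf8 were higher in Foxp3-detected cells of hashtags 1 to 4, Maf was higher in all hashtags but hashtag 2, where the groups were level, and Prdm1 had no shared direction. Irf4 had 24.8, 57.7, 23.5, 90.3, 27.1 and 4.78 CPM in Foxp3-detected cells of hashtags 1 to 6, against 10.97, 17.2, 9.95, 8.81, 8.22 and 7.04 CPM in the other T cells. The Foxp3-detected cells were higher in hashtags 1 to 5, and in hashtag 6 they held 1 Irf4 UMI. In hashtag 4, 1 of 92 Foxp3-detected cells held 11 of the 32 Irf4 UMIs. The median log2 ratio of Irf4 was 1.51 (0.01 to 3.33), where the value of 0.01 in hashtag 6 is above 0 only through the prior count of 0.5.

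Irf8 had 49.6, 76.2, 72.3, 141, 3.39 and 0 CPM in Foxp3-detected cells of hashtags 1 to 6, against 12.9, 30.4, 13.3, 16.4, 9.56 and 8.42 CPM in the other T cells. It was higher in hashtags 1 to 4 (log2 ratios 1.95, 1.33, 2.45 and 3.09), whereas the Foxp3-detected cells of hashtags 5 and 6 held 1 and 0 UMIs. Few cells carried much of this level: 10 of the 677 Foxp3-detected cells held 90 of 163 Irf8 UMIs. In hashtag 4, 3 of 92 cells held 42 of 50, and in hashtag 3, 3 of 126 cells held 24 of 37. Maf had 567, 462, 469, 587, 427 and 244 CPM in Foxp3-detected cells, against 398, 459, 321, 334, 187 and 168 CPM in the other T cells. Its median log2 ratio was 0.55 (0.01 to 1.20), with the groups level in hashtag 2. Set beside Th1 cells alone, Maf in Foxp3-detected cells was lower in hashtags 2 (462 against 528 CPM) and 6 (244 against 385 CPM). It was higher than in Th1 cells in hashtags 1, 3, 4 and 5. Prdm1 had 44.9, 37.0, 58.6, 76.2, 3.39 and 9.56 CPM in Foxp3-detected cells, against 34.0, 36.8, 30.2, 28.3, 10.4 and 9.45 CPM in the other T cells. Its median log2 ratio was 0.37 (-1.05 to 1.44). The Prdm1 intervals were apart in hashtags 3 and 4, where it was higher, and overlapped in the others. Hashtags 5 and 6 held 1 and 2 Prdm1 UMIs in Foxp3-detected cells. The lower value of hashtag 5 therefore settles no direction, and the ratio of 0.33 in hashtag 6 comes largely from the prior count.

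None of the 4 was past 2-fold in every hashtag, where 0.874% of 8010 genes were, and Irf4 and Maf, each with a ratio of 0.01 in 1 hashtag, counted among the 11.5% of genes higher in every hashtag. Effector Treg genes, a list that holds Il10, Ebi3 and Fgl2, had 5 of 11 measured genes higher and 0 lower in every hashtag, with a median log2 ratio of 2.18 against 0.09 over all genes. Il10 had 162 CPM in Foxp3-detected cells and 9.12 CPM in the other T cells (log2 ratio 3.97), Ebi3, a subunit of interleukin-35, had a ratio of 2.89, and Fgl2, a secreted suppressive protein, 2.31. Of 13 measured genes of resting or memory T cells that Prdm1 is known to oppose, 1 was higher and 5 were lower (3.8% of all genes were lower in every hashtag), with a median of -0.66. Tcf7 (-1.59), Ccr7 (-1.5003) and Lef1 (-0.99), factors and a homing receptor of resting T cells, were the lowest of these. Among 8 measured DNA-binding partners of Irf4 and Irf8, Junb (1.02) and Batf (0.70), both AP-1 factors, were higher in every hashtag and Ikzf1 (-0.97) was lower. Of the other Irf family genes, Irf5 was higher in every hashtag (1.78). Erythroid marker UMIs stood at 1699 CPM in Foxp3-detected cells, 1148 CPM in Th1 cells and 461 CPM in naive cells; without cells that held 10 or more such UMIs the Irf4 and Irf8 medians were 1.51 and 1.64.

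**Figure D2:**
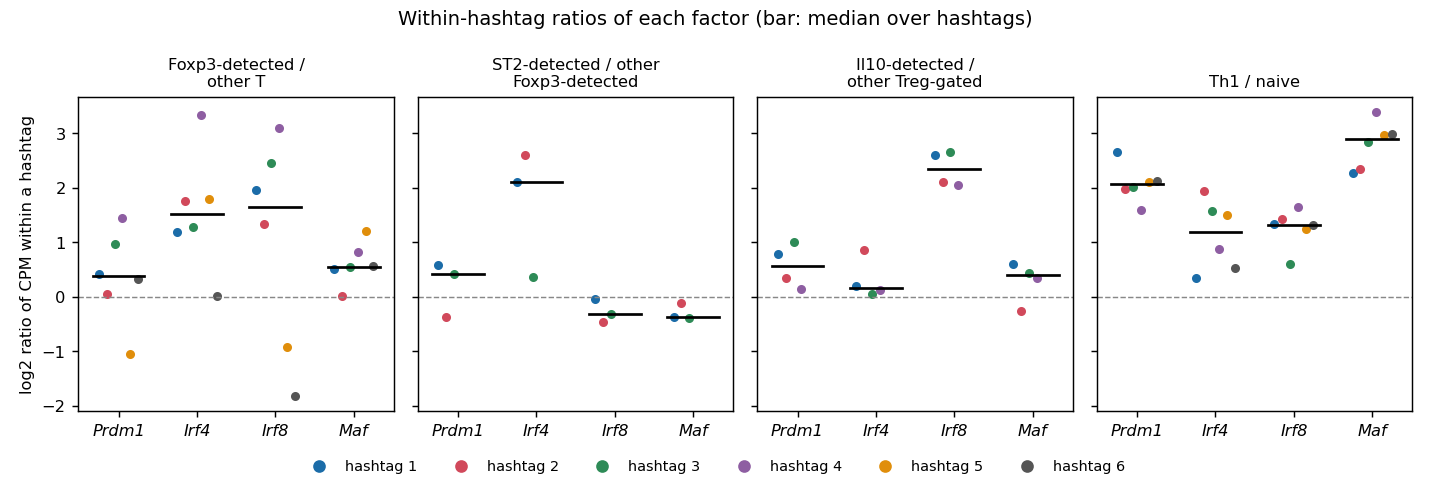
Points are log2 ratios of CPM within a hashtag (first class over second, prior count 0.5) for the 4 factors in 4 comparisons, and bars are medians over the usable hashtags. Irf8 stands above 2 in every hashtag for Il10-detected cells, Irf4 leads the ST2 comparison and Maf the Th1 comparison.

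ST2, the interleukin-33 receptor encoded by Il1rl1, marks fat-resident Tregs, so Foxp3-detected cells with an Il1rl1 UMI were set against Foxp3-detected cells without one in the 3 hashtags with enough cells. Irf4 had 34.8, 76.0 and 26.3 CPM in ST2-detected cells of hashtags 1 to 3, against 6.67, 8.54 and 19.3 CPM in the others. The values rest on 19, 24 and 8 UMIs in ST2-detected cells and 2, 1 and 4 UMIs in the others, and the log2 ratios were 2.10, 2.60 and 0.36. Irf4 was thus higher in all 3 hashtags, as were 14.5% of 8251 genes, with a median of 2.10 that was 1.23 without hashtag 2.

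Maf lay the other way. It had 512, 453 and 417 CPM in ST2-detected cells, against 667, 487 and 545 CPM in the others (log2 ratios -0.38, -0.11 and -0.39). Irf8 had 49.4, 69.6 and 65.7 CPM in ST2-detected cells, against 50.02, 94.0 and 82.0 CPM in the others. Both were lower in all 3 hashtags, as were 19.4% of genes. The Irf8 intervals overlapped in all 3 hashtags and its median of -0.33 was 0.036 in cells without any UMI of another cell type, so it has no settled direction, and the Maf intervals were apart in hashtag 1 and overlapped in hashtags 2 and 3. Prdm1 had 51.2, 34.8 and 65.7 CPM in ST2-detected cells and 33.3, 42.7 and 48.2 CPM in the others, with no shared direction.

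Over all Treg-gated cells, a wider split chosen after the data were seen, 6 hashtags had enough cells. Maf was lower in ST2-detected cells of all 6, at 464, 389, 421, 396, 377 and 301 CPM, against 604, 629, 561, 515, 445 and 416 CPM in the others. The median log2 ratio was -0.40 (-0.70 to -0.23), and 4.3% of 8006 genes were lower in every hashtag. Irf4 had 37.9, 45.5, 29.3, 61.3, 21.8 and 12.3 CPM in ST2-detected cells, against 18.7, 15.3, 22.5, 63.2, 20.9 and 13.9 CPM in the others. It was clearly higher in hashtags 1 and 2 and level in hashtags 4 to 6, with a median log2 ratio of 0.30 over the 6. That median is not like for like with the 2.10 in Foxp3-detected cells, which covers hashtags 1 to 3. In those 3 hashtags the log2 ratios were 1.004, 1.51 and 0.38, against 2.10, 2.60 and 0.36 in Foxp3-detected cells. Il1rl1 is also 1 of the 8 Treg markers, so Foxp3-zero cells without it entered on 3 or more of the others. Irf8 had 48.2, 46.5, 46.2, 53.0, 5.46 and 6.15 CPM in ST2-detected cells, against 38.0, 94.9, 47.4, 99.6, 26.8 and 21.9 CPM in the others. It was lower with ST2 in hashtags 2 and 4, with intervals that were separate but cover counting error only. The cells without ST2 there include 23 and 20 Il10-detected cells, whose Irf8 was far above that of Il10-zero cells, as given below. Hashtags 5 and 6 held 1 Irf8 UMI each in ST2-detected cells, and the median log2 ratio of Irf8 was -0.98 (-1.72 to 0.34).

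In the split of Foxp3-detected cells, where 14.5% of all genes were higher and 19.4% lower in every hashtag, 10 of 16 measured effector Treg genes were higher and 2 lower in ST2-detected cells, with a median log2 ratio of 0.47 against -0.05 over all genes. The largest differences were for Areg (2.65), an epidermal growth factor receptor ligand, Pparg (1.65), the lipid-sensing receptor of fat Tregs, and Ebi3 (1.52). Of 12 resting or memory genes 1 was higher and 7 were lower (median -0.57), among them the factors Bach2 (-1.92) and Satb1 (-1.58). The AP-1 genes Junb (0.90), Jun (0.86) and Jund (0.56) were among 4 of 8 Irf partners that were higher. In the Irf family 0 of 6 genes were higher and 4 lower, with Irf7 at -0.78, Irf1 at -0.66 and Irf2 at -0.38.

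Within the Treg gate, Irf8 differed between cells with an Il10 UMI and those without in every usable hashtag. Thinned to 2000 UMIs, an Il10 UMI was found in 9.06% (8.12% to 10.1%) of Treg-gated and 1.66% (1.12% to 2.37%) of naive cells, and 48.1% of the Il10-detected Treg-gated cells held 1 UMI. The naive share is read as background, and its part in the split was not tested. Irf8 had 137 (113 to 165), 143 (115 to 176), 179 (135 to 233) and 169 (131 to 215) CPM in Il10-detected cells of hashtags 1 to 4. In Il10-zero cells it had 22.6 (17.9 to 28.1), 33.4 (26.1 to 42.1), 28.4 (21.9 to 36.3) and 41.0 (32.2 to 51.4) CPM. All 4 Il10-detected groups lay above all 4 Il10-zero groups, with no overlap of intervals. The log2 ratios were 2.60, 2.10, 2.66 and 2.05 (median 2.35), which put Irf8 among the 19 of 7968 genes (0.238%) that were higher past 2-fold in every hashtag. In share of cells, an Irf8 UMI was found in 99 of 489 Il10-detected cells, or 20.2% (16.8% to 24.1%), against 228 of 3493 Il10-zero cells, or 6.53% (5.73% to 7.40%), at median depths of 3957 and 3136 UMIs. Hashtags 5 and 6 held 22 and 15 Il10-detected cells, under the minimum of 30, with 4 and 1 Irf8 UMIs.

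The other factors differed less. Prdm1 had 64.8, 52.0, 67.2 and 58.0 CPM in Il10-detected cells, against 37.8, 41.4, 34.2 and 53.7 CPM in Il10-zero cells. It was higher in all 4 hashtags, as were 14.5% of genes, with a median log2 ratio of 0.56 (0.14 to 1.001) and overlapping intervals in hashtags 2 to 4. Maf had 730, 387, 631 and 512 CPM in Il10-detected cells, against 480, 463, 466 and 405 CPM in Il10-zero cells. It was higher in 3 hashtags and lower in hashtag 2 (log2 ratios from -0.26 to 0.61). The Maf intervals, which cover counting error only, were apart in hashtags 1, 3 and 4. They overlapped in hashtag 2 (339 to 439 against 434 to 493 CPM). Irf4 had 32.4, 58.5, 25.6 and 65.6 CPM in Il10-detected cells, against 28.8, 32.5, 26.2 and 60.9 CPM in Il10-zero cells, a median log2 ratio of 0.16 with overlapping intervals in every hashtag.

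**Figure D3:**
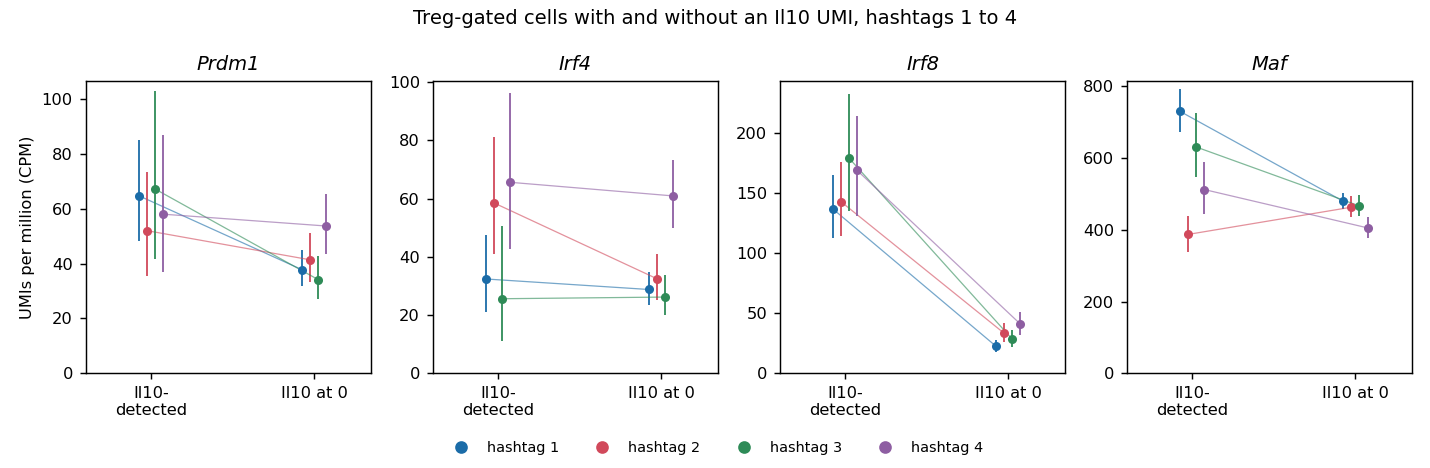
Levels in CPM (linear axis) in Treg-gated cells with an Il10 UMI and with none are joined by a line for each of hashtags 1 to 4, with exact Poisson 95% intervals. Irf8 is the factor whose intervals separate in all 4 hashtags, and the lines of Prdm1, Irf4 and Maf are flatter.

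Irf8 was also higher with Il10 on both sides of the ST2 split. Among cells without an Il1rl1 UMI it had 149 CPM in Il10-detected and 22.6 CPM in Il10-zero cells of hashtag 1, and 282 CPM and 22.1 CPM in hashtag 3. In hashtags 2 and 4, with 23 and 20 such Il10-detected cells, it had 527 and 497 CPM, against 31.6 and 29.3 CPM in Il10-zero cells. Among ST2-detected cells of hashtags 1 to 4 it had 132, 82.8, 118 and 88.1 CPM in Il10-detected cells, against 22.6, 34.1, 34.2 and 44.8 CPM in Il10-zero cells. The log2 ratios were 2.72 and 3.66 without ST2 in hashtags 1 and 3, and 2.54, 1.28, 1.80 and 0.99 with it. In Il10-zero cells of hashtags 2 and 4, Irf8 was not lower with ST2 (34.1 and 44.8 CPM) than without it (31.6 and 29.3 CPM).

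B cell markers stood at 9.03 CPM in Il10-detected and 7.06 CPM in Il10-zero Treg-gated cells, macrophage markers at 24.1 and 26.2 CPM, and dendritic cell markers at 1.72 and 1.88 CPM. All 25 markers of other cell types together stood at 71.4 and 85.0 CPM. The gate caps these markers at 1 UMI per cell, and the Il10-detected cells were deeper (median 3957 against 3136 UMIs). These CPM values therefore cannot tell which side held more of the markers. The erythroid markers, which the gate does not cap, stood at 1264 CPM in Il10-detected cells and 481 CPM in Il10-zero cells, and without cells of 10 or more erythroid UMIs the Irf8 median was 2.35.

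Ccl4, a chemokine, led the genes that differed (847 CPM in Il10-detected and 34.3 CPM in Il10-zero cells, log2 ratio 4.51), and Irf8 came next; these were picked for their values. Of 10 measured effector Treg genes 7 were higher and 1 lower, with a median of 0.51 against 0.03 over all genes, led by Gzmb (1.90), a cytotoxic protease, Lag3 (1.83), an inhibitory receptor, and Tnfrsf9 (1.78), the costimulator 4-1BB. Of 12 resting or memory genes 0 were higher and 8 lower (median -0.64), where 9.84% of all genes were lower in every hashtag, with Ccr7 at -1.06, the egress receptor S1pr1 at -1.02 and Bach2 at -0.99. Batf (0.69), Ikzf3 (0.37) and Nfatc1 (0.31) were among 5 of 8 partner genes that were higher. Of 6 other measured Irf genes 0 were higher in every hashtag, and Irf7 was lower (-1.14). Pdcd1, the receptor PD-1 and a gene linked to Maf in helper cells, was higher (0.92).

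Irf8 was unevenly spread over Treg-gated cells. Of 327 cells with an Irf8 UMI, 236 held 1, 60 held 2 to 4 and 31 held 5 or more, up to 24. The 31 cells held 300 of 684 Irf8 UMIs (43.9%), and 7, 8, 7, 8, 1 and 0 of them carried hashtags 1 to 6. No Th1 cell held more than 3 Irf8 UMIs and no naive cell more than 2. Among cells with a UMI of the gene in the Treg gate, 9.48% held 5 or more for Irf8, 2.13% for Irf4, 0% for Prdm1 and 15.7% for Maf.

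**Figure D4:**
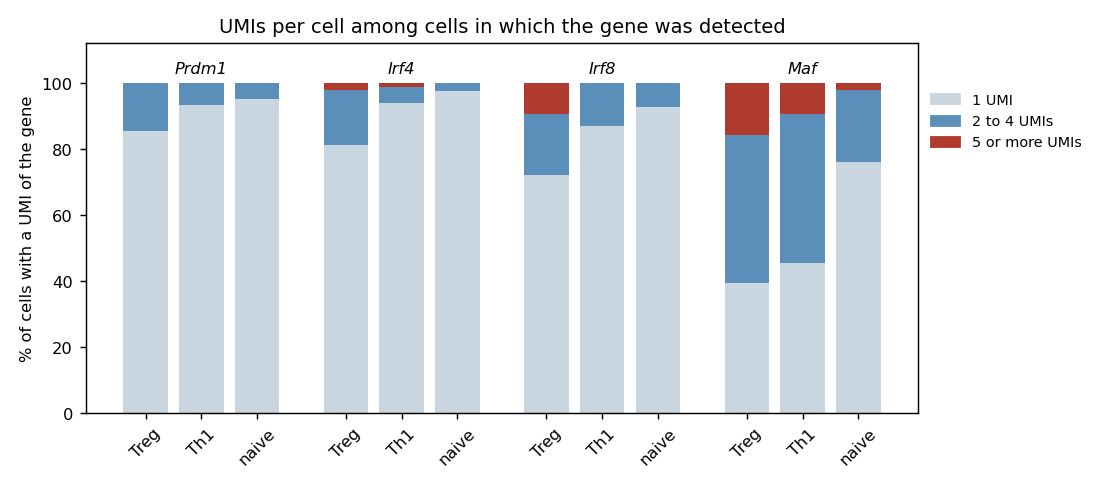
Stacked bars give, for each factor and for Treg-gated, Th1 and naive cells, the percent of cells with a UMI of the gene that held 1, 2 to 4, or 5 or more UMIs. For Irf8 the class of 5 or more is filled in Treg-gated cells alone of the 3 classes, while for Maf it is filled in all 3.

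The cut at 5 UMIs was set after the values were seen, and it marks a range of counts and not a cell type. Il10 had 1278 CPM in the 31 cells and 102 CPM in the other 3951 Treg-gated cells, with an Il10 UMI in 67.7% against 11.8% of cells. Prdm1 had 125 against 36.2 CPM and Irf4 149 against 31.5 CPM, both with separate intervals. Maf differed less, at 594 (484 to 723) against 467 (456 to 478) CPM. Tnip3, an inhibitor of NF-kappaB signalling, had 309 against 5.10 CPM, and Tnfrsf9 487 against 31.5 CPM. Ccl4 had 6486 against 82.4 CPM, from 12 of the 31 cells. Foxp3 had 83.2 against 51.8 CPM and Il1rl1 268 against 342 CPM.

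The 31 cells were also checked for other cell types. Cd3e, a T cell receptor subunit, was found in 90.3% of them against 78.0% of the others, at median depths of 3960 and 3204 UMIs. Cd3e is among the markers of which the T cell gate requires at least 1, so a high share was largely set by the gate. The B cell markers Cd79a and Ms4a1, the dendritic cell markers Siglech, Xcr1 and Itgax and the macrophage markers C1qa and Csf1r were at 0 UMIs in them, and the dendritic cell marker Flt3 had 1 UMI. The 25 markers of other cell types stood at 59.4 against 83.2 CPM in sum, but the gate allows at most 1 such UMI per cell, so these zeros and sums could hardly have come out high. Whether RNA of other cell types has a part in the Irf8 level of the 31 cells was not tested.

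Without the 31 cells Irf8 was still higher with Il10. It then had 63.9, 55.7, 47.0 and 37.1 CPM in Il10-detected cells of hashtags 1 to 4, against 21.2, 26.0, 18.8 and 21.2 CPM in Il10-zero cells. The log2 ratios were 1.60, 1.11, 1.36 and 0.84, each smaller than with the 31 cells. The intervals then overlapped in hashtags 3 (25.03 to 80.4 against 13.6 to 25.4 CPM) and 4 (20.3 to 62.3 against 15.0 to 29.1 CPM), and hashtag 4 was no longer past 2-fold.

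Co-detection was counted after thinning to 2000 UMIs, and the cells expected to hold both genes were computed within each hashtag, as if detection of the 2 genes were independent there. In 3398 Treg-gated cells, 36 held Irf8 and Il10 where 14.9 were expected, a ratio of 2.41 (1.69 to 3.33). For Prdm1 and Il10, 47 cells were found where 24.4 were expected, a ratio of 1.93 (1.42 to 2.57). The ratio was 1.28 (0.818 to 1.90) for Irf4 and 1.08 (0.921 to 1.25) for Maf, whose intervals include 1 at this depth. Both lay above 1 at other depths: unthinned, Irf4 gave 1.54 (1.22 to 1.93) and Maf 1.13 (1.02 to 1.26), and thinned to 1000 UMIs, 2.23 (1.30 to 3.57) and 1.32 (1.08 to 1.596). Irf8 and Prdm1 lay above 1 at all 3 depths, with Irf8 at 2.35 (1.91 to 2.86) unthinned and 3.5037 (2.24 to 5.21) at 1000 UMIs. As shares, Il10 was found in 22.8% of Irf8-detected and 8.40% of Irf8-zero cells, in 20.1% of Prdm1-detected and 8.25% of Prdm1-zero cells, in 12.8% of Irf4-detected and 8.84% of Irf4-zero cells, and in 9.98% of Maf-detected and 8.15% of Maf-zero cells. By hashtag, the Prdm1 and Il10 ratio was 2.01, 1.74, 1.80 and 1.89 in hashtags 1 to 4, above 1 in each, and the Irf8 and Il10 ratio was 2.29 and 2.72 in hashtags 1 and 2, the ones with at least 30 Irf8-detected cells.

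With Foxp3, over 9625 T cells, the ratio within hashtags was 1.90 (1.21 to 2.82) for Irf4, 1.70 (1.04 to 2.63) for Irf8, 1.46 (0.988 to 2.09) for Prdm1 and 1.18 (1.01 to 1.37) for Maf. The counts behind these are 24, 20, 30 and 171 cells, and the expectation over all cells at once, which also takes up differences in Treg share between hashtags, gave 2.28, 1.99, 1.85 and 1.34. By hashtag, the Irf4 and Foxp3 ratio was 0.86, 2.34, 3.38, 2.40 and 0 in hashtags 1 to 5, on 3, 8, 7, 6 and 0 co-detected cells, so its excess came from hashtags 2 to 4.

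Among the factors themselves in Treg-gated cells, Irf8 and Prdm1 were found together in 22 cells where 11.3 were expected within hashtags, a ratio of 1.94 (1.22 to 2.94). Irf4 and Irf8 gave 1.64 (0.916 to 2.70), Maf and Prdm1 1.18 (0.997 to 1.397) and Irf4 and Prdm1 1.12 (0.638 to 1.81). Maf gave 1.003 with Irf4 and 1.03 with Irf8. At this depth Irf8 and Prdm1 were the pair whose interval lay above 1, but the order of the pairs depended on depth. Thinned to 1000 UMIs, Irf8 and Prdm1 gave 1.16 (0.378 to 2.72), on 5 cells, while Irf4 and Irf8 gave 3.15 (1.57 to 5.64) and Maf and Prdm1 1.345 (1.05 to 1.70). Unthinned, Irf4 and Irf8 gave 1.85 (1.41 to 2.39), Irf8 and Prdm1 1.66 (1.29 to 2.11) and Maf and Prdm1 1.15 (1.04 to 1.28).

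**Figure D5:**
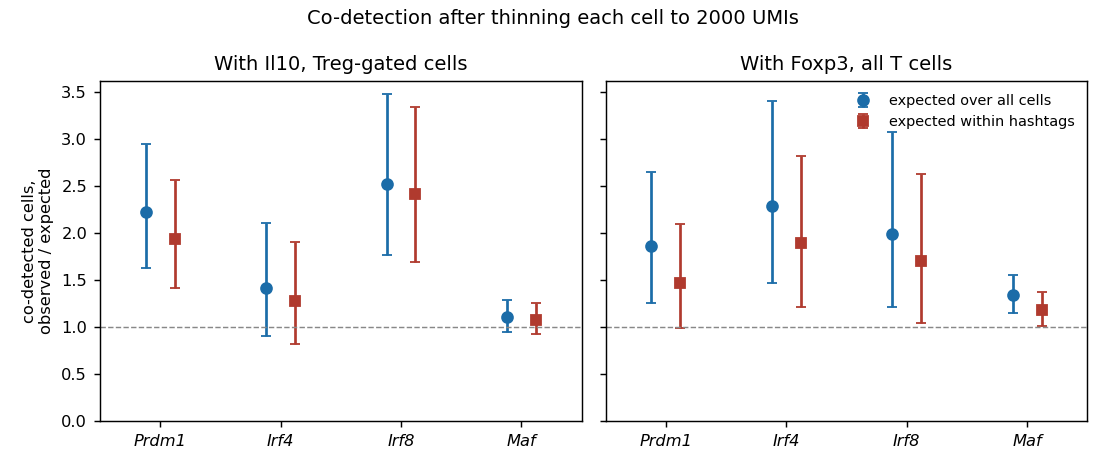
Ratios of observed to expected co-detected cells after thinning to 2000 UMIs are plotted for each factor with Il10 in Treg-gated cells (left) and with Foxp3 in all T cells (right), with the expectation taken over all cells (circles) or within hashtags (squares) and exact Poisson 95% intervals of the observed count. With Il10 the intervals of Irf8 and Prdm1 lie above 1, and those of Irf4 and Maf include it.

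Outside Tregs, Maf and Prdm1 set Th1 cells, which make interferon gamma, apart from naive cells. Maf had 448, 528, 394, 450, 388 and 385 CPM in Th1 cells of hashtags 1 to 6, against 91.1, 100.4, 54.0, 40.8, 49.5 and 48.3 CPM in naive cells. Every Th1 value lay above every naive value, with log2 ratios of 2.27, 2.34, 2.84, 3.40, 2.97 and 2.99 (median 2.90). Prdm1 had 37.4, 45.1, 36.2, 42.3, 23.2 and 22.4 CPM in Th1 cells, against 3.96, 7.73, 7.72, 12.2, 5.36 and 5.11 CPM in naive cells, a median log2 ratio of 2.06 (1.59 to 2.66). Both were higher past 2-fold in all 6 hashtags, where 1.83% of 7794 genes were. For Prdm1 the naive cells of hashtags 1 to 4 held 1, 1, 3 and 3 UMIs, so its ratios there depend on the prior count. The Prdm1 intervals of Th1 and naive cells overlapped in hashtags 2 and 4.

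Irf4 (median 1.19, 0.34 to 1.95) and Irf8 (1.32, 0.59 to 1.65) were higher in Th1 cells of all 6 hashtags, as were 24.4% of genes. The naive cells of hashtags 1 to 4 held 0 to 3 UMIs of either gene, so these ratios depend on the prior count. Of the lists, 7 of 7 measured effector Treg genes were higher in Th1 cells (median 1.88 against 0.27 over all genes), led by Gzmb (2.38), the ectoenzyme gene Entpd1 (2.16) and the adhesion receptor Cd44 (1.96). Of 9 resting or memory genes 5 were lower, where 5% of all genes were, including Satb1 (-3.29) and Bach2 (-1.79), and Il2, the growth factor of T cells, was the 1 gene higher (1.60). Partner genes of Irf4 were higher in 6 of 8 cases, led by Ikzf3 (1.69), Nfatc1 (1.27) and Nfatc2 (1.23), and Mafg, a small Maf protein that pairs with larger ones, stood at 1.63.

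Tfh cells could be set against naive cells in hashtag 5 alone, with 55 and 924 cells. Erythroid markers stood at 14319 CPM in these Tfh cells and 80.9 CPM in the naive cells, and without cells of 10 or more erythroid UMIs the Maf log2 ratio was 3.96. Maf had 731 CPM (607 to 873) in Tfh cells and 49.5 CPM in naive cells, a log2 ratio of 3.89, where 31.3% of 8436 genes were higher past 2-fold. Irf8 had 2 UMIs in these Tfh cells, and Prdm1 and Irf4 had 0. Lag3 (5.16) and Id3 (2.82), an inhibitor of E proteins, were higher, while Satb1 (-2.54) and Klf2 (-2.48), a factor of circulating T cells, were lower.

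Treg-gated cells were also split by a UMI of each factor, a comparison added after the data were seen, and the genes named here were picked for their values unless they are members or Il10. Prdm1-detected cells had 305 CPM of Il10 against 111 CPM in Prdm1-zero cells (median log2 ratio 1.54, 0.39 to 2.69), 99.1 against 42.3 CPM of Irf8 (1.42) and 576 against 462 CPM of Maf (0.25, 0.09 to 0.53), each higher in all 4 usable hashtags. Of 7944 genes, 11.7% were higher and 6.16% lower in all 4. Of 12 resting or memory genes, which Prdm1 is known to oppose, 8 were lower in Prdm1-detected cells of every hashtag (median -0.45). Among them were Id3 (-0.71), Tcf7 (-0.64) and Ccr7 (-0.60). A low median of this list was not particular to the Prdm1 split. It was -0.45 in Irf4-detected cells (4 of 13 lower, 0 higher) and -0.39 in Maf-detected cells (4 of 13 lower, 0 higher). In Irf8-detected cells it was -0.24 (5 of 14 lower, 3 higher). Ccl4, outside this list, was higher in Prdm1-detected cells (3.05). Irf8-detected cells had 354 CPM of Il10 against 92.4 CPM (1.57, 0.44 to 2.70; higher in all 5 usable hashtags, where 12.4% of 8020 genes were higher and 6.45% lower), with Tnfrsf9 (2.53), Tnip3 (2.43), the type 2 cytokine gene Il5 (1.95), Lag3 (1.81) and Myc (1.28) higher and S1pr1 (-0.95) lower.

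In Irf4-detected cells, Il13 (1.80), Il5 (1.79) and Csf2 (1.72), cytokine genes, and Cdk1 (1.33) and Mcm5 (1.26), genes of dividing cells, were higher. Il13 (1.88) was as high in Irf8-detected cells. Foxp3 had 35.9, 45.2, 59.5, 53.6 and 39.1 CPM in Irf4-detected cells of hashtags 1 to 5. Irf4-zero cells had 62.9, 48.3, 55.8, 45.8 and 43.8 CPM, with overlapping intervals in each hashtag. Irf8-detected cells of hashtag 5 held 1 Foxp3 UMI (5.87 against 46.8 CPM), and the intervals overlapped in hashtags 1 to 4. Most Treg-gated cells held no Foxp3 UMI, and whether the cytokine genes come from Tregs was not tested. In Irf4-detected cells the haemoglobin genes Hba-a1 (-3.41) and Hbb-bs (-3.28) were lower. Il10 was higher in all 5 usable hashtags (225 against 109 CPM; 0.68, 0.17 to 1.74), where 7.8% of 8001 genes were higher and 4.94% lower, while Prdm1 (-0.002) and Maf (-0.06) had medians near 0 and hashtags in either direction. Irf8 had 115, 72.4, 15.9, 181 and 83.8 CPM in Irf4-detected cells of hashtags 1 to 5, against 33.8, 55.3, 50.1, 38.7 and 19.3 CPM in Irf4-zero cells. It was higher in 4 of these 5 hashtags and lower in hashtag 3, with a median log2 ratio of 1.77 (-1.497 to 2.23). Haemoglobin was also lower in Irf8-detected cells (Hba-a2 -2.99), and its part in these differences was not tested.

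In Maf-detected cells Prdm1 had 47.0, 41.2, 44.5, 57.8, 18.2 and 12.5 CPM in hashtags 1 to 6, against 30.8, 50.4, 22.8, 47.0, 5.57 and 5.67 CPM in Maf-zero cells. It was higher in 5 of 6 hashtags, with a median log2 ratio of 0.76 (-0.30 to 1.61), where 6.11% of 7888 genes were higher and 2.56% lower in all 6. Irf4 had a median of -0.06 and Irf8 of -0.20, both with hashtags in either direction, and Il10 one of 0.25 with hashtags in both directions (-0.25 to 1.44). Spp1 (2.18) and Cdca3 (2.05) were higher, Pdcd1 stood at 0.52, and Il2 (-1.01) and Ccr7 (-0.75) were lower. The part of cell depth in these splits was not tested.

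Genes whose level followed a factor over the 36 sums of gated class by hashtag were named by Spearman correlation among 7556 genes. For Prdm1 these were Sh3bgrl3, Cdc42ep3, Lgals1, Gna15 and Ahnak, each at 0.90. For Irf4 they were Prelid3b (0.84), Epcam and Ttc39c (0.83), and Capg and Xbp1 (0.81). For Irf8 they were Ucp2, Arpc2 and Ebpl (0.86), and Tmsb4x and S100a6 (0.85). For Maf they were Srgn (0.92), Prkar1a, Pfn1 and Ndfip1 (0.91), and Gapdh (0.90). Among the factors, Prdm1 and Irf8 were most alike (0.80), followed by Irf4 and Irf8 (0.73) and Irf8 and Maf (0.71). The 36 sums come from 1 library and share cells' hashtags, so the correlations are descriptions without a p.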

How the data were processed

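The authors deposited raw UMI counts per gene and barcode and raw hashtag counts per barcode, limited to called cells in the expression matrix and not normalised, per the file headers. Per the submitters' processing notes the tools were Cell Ranger 6.0 and Seurat 3 on mm10, but the header of the expression file gives cellranger 4.0.0, and the sources do not settle which made the files. Hashtags were called here with HTODemux (Seurat 5.3.0, R 4.3.3, positive quantile 0.99), which gave 14879 singlets (64.8%), 5804 doublets (25.3%), which were left out, and 2269 barcodes without a call. Doublets of a shared hashtag were estimated at 1302 singlets (8.75%) and remain. Of the singlets, 13599 had 500 or more genes and a mitochondrial share below 10%; 11733 of these were T cells (39974263 UMIs).

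Counts were summed per gated class and hashtag and divided by the class total (pandas 2.3.3, scipy 1.17.1 and numpy 2.4.6 under Python 3.11.15; figures with matplotlib 3.10.9). Log2 ratios of CPM within a hashtag used a prior count of 0.5 and took hashtags whose classes each held 30 cells or more, and are given as medians with their range. Background counts cover genes at 10 CPM or more in either class. With 1 library no test was run, no replicate error exists, and intervals of PCR-amplified counts cover counting error alone. The ratio step recovered known differences in simulated data, whose settings and values are not given here.

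From each list and comparison, up to 3 genes with the largest median ratio among those in the same direction in every usable hashtag were named, beside the 4 factors, Il10, Foxp3 and the 5 most alike genes; 1 gene under this rule is not reported here. The 4 factors, lists and gates were chosen with earlier results of these data known. Gates need 2 or more of 6 Th1, 5 Tfh or 6 type 17 markers or 3 or more of 5 naive markers. The 427 cells in more than 1 of these classes were left out of each, but stayed among the other T cells and all T cells. Hashtags 7 to 10 were not analysed here, nor were contrasts of genotype, time and tissue.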

Additional observations from a re-analysis of the deposited data

How the results depend on the processing

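No paired analysis was possible because the hashtags are not mapped to conditions and no result comes from a test. Of 264 member ratios under alternatives in the comparisons by Foxp3, ST2, Il10, Th1 and Tfh, 259 kept their sign. The exceptions were Irf8 by ST2 and Irf4 by Il10, given here, and Prdm1 and Irf4 in Tfh cells, which were at 0 UMIs there. In the splits by a factor, ratios near 0 also turned: Irf4 by Prdm1 (0.10, down to -0.14), Prdm1 by Irf4 (-0.002, up to 0.22), Maf by Irf4 (-0.06, up to 0.30) and Irf4 by Maf (-0.06, up to 0.30). The Irf8 ratio in Il10-detected cells lay between 2.04 and 2.55 under the processing alternatives and between 2.10 and 2.60 with a hashtag left out, while leaving out the 31 Irf8-rich cells gave 0.84 to 1.60 by hashtag. Leaving out a hashtag gave 1.23 to 2.35 for Irf4 by ST2, 1.33 to 1.95 for Irf8 and 1.27 to 1.75 for Irf4 by Foxp3, and 2.84 to 2.97 for Maf and 2.02 to 2.10 for Prdm1 in Th1 cells. In the ST2 split, in cells of 1000 or more genes and under 5% mitochondrial UMIs Irf4 was 0.86 and Maf -0.17, Irf8 was 0.036 without any UMI of another cell type, Irf8 was -0.043 and Maf -0.58 with cells weighted equally, Maf was -0.18 without the 5% deepest cells, and over all Treg-gated cells, chosen after seeing the data, Irf4 was 0.30 and Irf8 -0.98. In Foxp3-detected cells alone the Irf4 ratio by Il10 was -0.23. In Th1 cells a prior count of 2 gave 1.62 for Prdm1, 0.39 for Irf4 and 0.64 for Irf8, and a gate of 3 markers gave 1.73 for Irf8. Maf in Tfh cells was 4.24 with top tags of at least 10 counts and 80% of tag counts, and 3.51 outside ribosomal and mitochondrial genes. The cause was not tested. Thinned to 1000 UMIs, pooled co-detection with Il10 was 2.55 for Irf4, 3.80 for Irf8 and 1.33 for Maf in Treg-gated cells, against 1.42, 2.51 and 1.10 at 2000 UMIs, and 4.35 for Irf4 and 1.58 for Maf in all T cells, against 2.45 and 1.37. With no minimum level, genes past 2-fold higher in every hashtag numbered 3112 against 70 for Foxp3, 1489 against 19 for Il10 and 8734 against 2642 for Tfh; for Th1 cells they numbered 75 with a prior count of 2 and 466 with at least 100 cells a side, against 143, and for ST2 13 to 185 against 78. With at least 100 cells a side the Tfh comparison gave no value. Depth limits Prdm1, Irf4 and Irf8 most: they had 1037, 725 and 986 UMIs in all T cells, against 13500 for Maf, and small groups rest on a handful of UMIs.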
